A study of Mus musculus with 8 samples.

Results

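The subunits of oxidative phosphorylation were examined in whole lungs of mice in which doxycycline (dox) switches on a transgene for the inflammatory cytokine interleukin-1b (IL-1b). Members were taken by the gene symbol printed on the array: the Nduf A, B, C, S and V series (complex I), Sdha to Sdhd (complex II), Uqcr genes (complex III), Cox4 to Cox8 genes (complex IV) and Atp5 genes (complex V). This gave 98 probe sets for 84 genes out of 27200 genes measured, and the brightest probe set over all 8 arrays stood for each gene. Complex I had 37 members, complex II 4, complex III 7, complex IV 19 and complex V 17.

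Oxidative phosphorylation takes place in the inner membrane of the mitochondrion. Complex I (NADH dehydrogenase) and complex II (succinate dehydrogenase) pass electrons to ubiquinone, complex III hands them on to cytochrome c, and complex IV (cytochrome c oxidase) gives them to oxygen. Complexes I, III and IV pump protons, and complex V (ATP synthase) uses the resulting gradient to make ATP. Most subunits are encoded in the nucleus and present in every cell with mitochondria, whereas a few subunits of complex IV exist as isoforms restricted to muscle, testis or lung. Lung has a modest energy demand, and its vein walls carry cardiac muscle that is rich in mitochondria in mice.

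All mice were BALB/c animals carrying the lung-specific IL-1b transgene, and no group without the transgene was analysed here. The control group (3 arrays) received water and the induced group (5 arrays) received dox, both for 7 days. Age was near 12 weeks by the labels and 5 weeks by a table header in the deposit. The sources used here do not name the promoter that drives the transgene. Effects of dox itself and of IL-1b cannot be told apart, and the labels do not say whether each array is a separate animal, so the p-values reflect array-to-array spread that may be technical. Alveolar markers were bright on all 8 arrays, as the labelled tissue requires. The summed intensity of 13 alveolar type 1 and type 2 markers ran from 100949 to 103099 in water and from 96729 to 100568 in dox, without overlap. In the test across all genes 2 of the 13 rose and 0 fell (1 and 0 without dox 2 and dox 3, described next). With a trend and robust prior for the variance 2 rose and 3 fell. Their median log2 change was -0.01, and 6 had an unadjusted p under 0.05, against 18.7% of all genes.

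Within a group, Pearson correlations between arrays ran from 0.994 to 0.997, and the median intensity of an array lay between 40.8 and 41.9 units. The arrays dox 2 and dox 3 stood apart in transcripts of cardiac muscle. In 13 of 14 cardiac markers both lay below the other 3 dox arrays, and the summed intensity of the 14 markers was 5989 in dox 2 and 6690 in dox 3, against 10409 to 14680 in the other dox arrays and 10501 to 13132 in water. None of the 14 lay in the lower quartile of intensities. Of these markers 1 was called, Myh7 (log2 change 0.38, limma adjusted p = 0.00735), and its call was lost when the probe sets of each gene were averaged (adjusted p = 0.0782). Calls and isoform values that changed without dox 2 and dox 3 are given both ways. Marker transcripts of several cell types also differed between the groups. In dox 11 of 13 macrophage and monocyte markers, 9 of 12 neutrophil markers and 8 of 10 proliferation markers rose. Without dox 2 and dox 3 these counts were 11, 5 and 6. Of 12 endothelial markers 2 fell, Ednrb and Gpihbp1, and 10 had an unadjusted p under 0.05, against 18.7% of all genes (median log2 change -0.27). Neither endothelial call held when any 1 of water 1, water 2, dox 2 and dox 3 was left out. Both were also lost without dox 2 and dox 3 together (limma adjusted p = 0.126 and 0.205). There the log2 changes of Ednrb and Gpihbp1 were -0.60 and -0.33, against -0.57 and -0.43 with all 8 arrays. Over all genes 607 were called in that setting, against 1359 with all 8 arrays. Endothelial sums were 40894 to 43476 in water and 33986 to 38504 in dox, without overlap. The summed macrophage and monocyte signal was 25788 to 26542 in water and 32458 to 36091 in dox, and that of neutrophils 3408 to 6036 and 17939 to 23871. In bulk tissue fewer cells of a type and less RNA per cell cannot be told apart, and the part of these shifts in the results below was not tested.

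Transcripts of the respiratory chain were nearly level between the groups while those of inflammatory cells changed. Tested with limma over all 27200 genes (Benjamini-Hochberg adjusted p under 0.05), 1 of 84 members was lower in dox and 0 were higher, whereas 5.00% of all genes were called, 3.48% upward and 1.52% downward. An unadjusted p under 0.05 was reached by 9 members, 6 lower and 3 higher, against 18.7% of all genes (2700 lower and 2391 higher). The values of the groups did not overlap for 10 of the 84 members, 8 lower and 2 higher in dox. This compares with 14.2% of all genes (1893 lower and 1971 higher). The median log2 change (dox minus water) over the members was -0.02 and that over all genes was -0.03. With another prior for the variance (trend and robust) 5 of the 84 members were called, 3 lower and 2 higher. With that prior 1816 of the 27200 genes were called, 664 lower and 1152 higher.

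The intervals bound how large a change these arrays leave room for. Of the 72 ubiquitous subunits, 70 had signal above the lower quartile of the arrays (at most 14.5 units), and their log2 changes ran from -0.23 to 0.24, with 58 of them smaller than 0.1. The 95% interval of the fold change (limma, 5 dox and 3 water arrays) lay wholly within 1.25-fold either way for 65 of the 70 and within 1.5-fold for all 70. Such intervals within 1.25-fold were found for 60.2% of all genes, and those within 1.5-fold for 92.7%. For the 4023 genes at or above the 10th percentile of the ubiquitous subunits in mean log2 intensity, the shares were 65.8% and 91.2%. The 5 subunits that missed the narrower bound were Atp5f1, Cox5a, Ndufv3, Ndufb3 and Ndufa13. The median spread between arrays of a group was 0.06 (residual SD, log2) for the ubiquitous subunits and 0.12 over all genes. For those 4023 genes of similar brightness it was 0.08. The values were normalised between arrays, so the intervals concern a change relative to other transcripts, not RNA per lung.

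**Figure D1:**
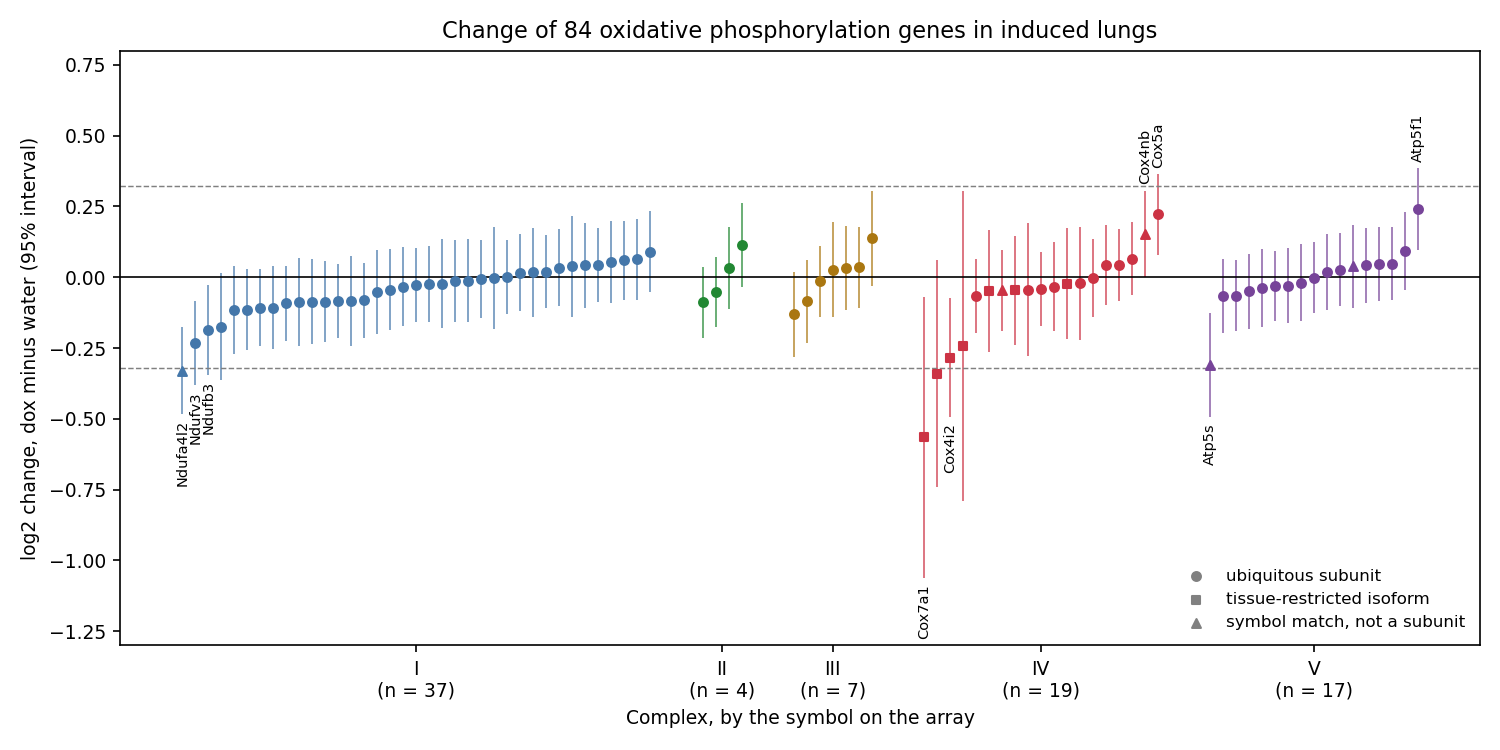
Log2 change (dox minus water) of each of the 84 members with its 95% interval, ordered within each complex. Circles are ubiquitous subunits, squares tissue-restricted isoforms and triangles genes whose symbol matches but whose product is not a subunit; dashed lines mark 1.25-fold and names mark an unadjusted p under 0.05. Most circles lie close to 0, and the widest intervals belong to 3 isoforms of complex IV.

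The 5 complexes had median log2 changes of -0.03 (complex I, 37 members, range -0.33 to 0.09), -0.01 (complex II, 4 members, -0.09 to 0.11), 0.03 (complex III, 7 members, -0.13 to 0.14), -0.04 (complex IV, 19 members, -0.57 to 0.22) and -0.00 (complex V, 17 members, -0.31 to 0.24). All 5 medians lay within 0.05 of 0. Restricted to ubiquitous subunits, the medians were -0.03 for complex I (36), -0.01 for complex IV (10) and -0.00 for complex V (15), and the range of complex IV narrowed to between -0.07 and 0.22. On single arrays, taken against the mid-point of the group means, the medians of the complexes ran from -0.07 (complex III, water 1) to 0.08 (complex III, water 3). In water 3 all 5 complexes lay above their mid-point, by 0.04 to 0.08, and in dox 3 all 5 lay below it, by up to 0.05. With each array left out in turn the median of all members ran from -0.04 to 0.00.

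**Figure D2:**
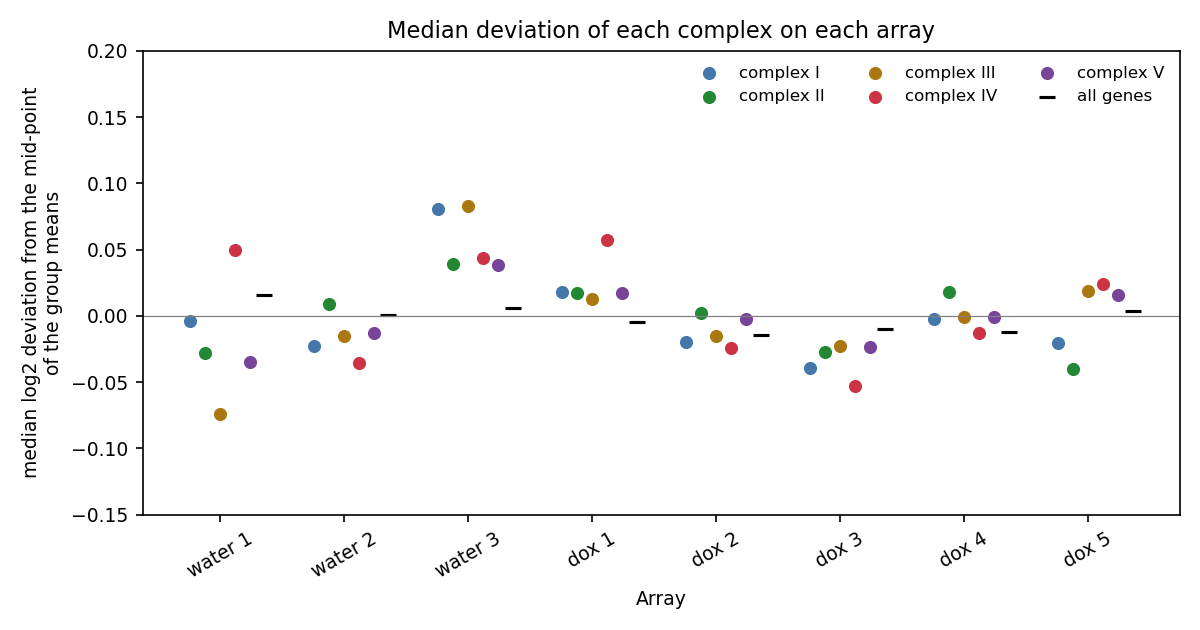
Median log2 deviation of the members of each complex on each array from the mid-point of the 2 group means, with the median over all 27200 genes as a black dash. The 3 water and 5 dox arrays overlap for every complex, all 5 complexes lie above 0 in water 3, and all 5 lie below 0 in dox 3.

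In complex I, subunits that carry electrons from NADH had small changes. Ndufv1, which binds NADH, changed by -0.09, Ndufv2 by 0.02 and Ndufs1, the largest iron-sulfur subunit, by -0.09, and none of these passed the test. Ndufv2 measured 2420, 2501 and 2716 intensity units in water and 2598, 2554, 2614, 2597 and 2498 in dox 1 to 5. The dox values of Ndufv2 lay inside the range of the water values. Its fold change was 1.01 with a 95% interval from -0.12 to 0.15 on the log2 scale. Ndufb11, an accessory subunit of the membrane arm, had 2658 to 2856 units in water and 2511 to 2677 in dox (log2 change -0.08). Accessory subunits with an unadjusted p under 0.05 were Ndufv3 and Ndufb3, both lower in dox.

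Ndufv3, a small accessory subunit of the NADH-oxidising module, measured 299, 311 and 268 units in water and 254, 245, 256, 248 and 239 in dox. All 5 dox values lay below the 3 water values. The log2 change was -0.23 ± 0.07 (SE) and did not pass in limma (adjusted p = 0.0792), though it did with the trend and robust prior (0.0499), after a second quantile normalization (0.0447) and without water 3 (0.04996). Ndufb3, in the membrane arm, had 925, 910 and 942 units in water and 721 to 860 in dox, again without overlap (log2 change -0.19 ± 0.07 SE, adjusted p = 0.193). Ndufs7, an iron-sulfur subunit (-0.11, adjusted p = 0.383), and Ndufb10, in the membrane arm (-0.09, adjusted p = 0.465), were also lower in dox without overlap. The probe set of Ndufa1 lay under the lower quartile in both groups, so the array gives no usable level for this subunit.

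The single call belonged to Ndufa4l2, a paralogue of Ndufa4 that hypoxia-inducible factor switches on and that is not counted among the fixed subunits of complex I. It measured 648, 663 and 650 units in water and 484.5, 524, 576, 518 and 503 in dox. Water values were tightly grouped (SD 0.02, log2) and all dox values lay below them (SD 0.09). Ndufa4l2 fell by 0.33 (SE 0.07, 0.796-fold, 95% interval of the log2 change -0.48 to -0.18, limma adjusted p = 0.0210). The call was lost without water 1 (adjusted p = 0.0587), water 2 (0.0750) or water 3 (0.0625), where the log2 change ran from -0.34 to -0.32, and it held without any 1 dox array and without both dox 2 and dox 3 (0.0352). Its relative Ndufa4, named as a complex I protein but found in complex IV, changed by 0.02 (95% interval -0.14 to 0.18). In the mouse lung Ndufa4l2 is known from pericytes and vascular smooth muscle. Of 13 smooth muscle and pericyte markers 0 passed in limma. An unadjusted p under 0.05 was reached by 7, 5 lower and 2 higher in dox, against 18.7% of all genes. Their summed intensity was 3290 to 3641 in water and 2391 to 3145 in dox, without overlap, and none lay in the lower quartile. Des, a filament protein of muscle, had the smallest p of that list (-0.44, adjusted p = 0.0508, and 0.0228 to 0.229 over the alternatives). The 2 higher ones were the channel subunits of pericytes Kcnj8 (0.44, adjusted p = 0.0899) and Abcc9 (0.30, adjusted p = 0.107), and the pericyte marker Rgs5 changed by 0.05. The part of these markers in the lower Ndufa4l2 was not tested.

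**Figure D3:**
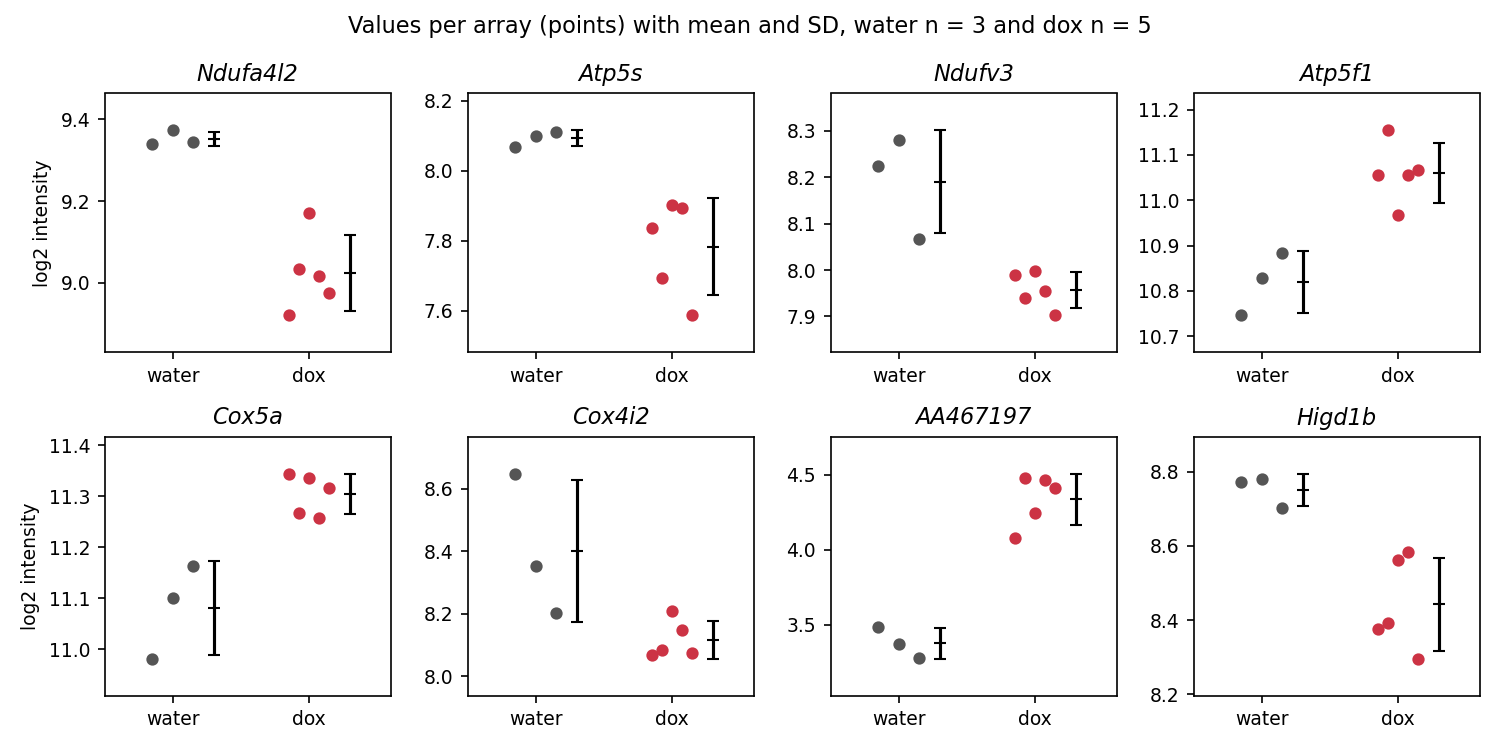
Log2 intensity on each array of 6 members and of AA467197 and Higd1b, with the mean and SD of each group beside the points (water n = 3, dox n = 5). The groups do not overlap for any of the 8 genes but Cox4i2, where dox 3 lies just above water 3.

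Complex II holds only 4 subunits, and none passed. Sdha, the flavoprotein that oxidises succinate, measured 1679, 1658 and 1653 units in water and 1577, 1533, 1576, 1609 and 1525 in dox. The dox values of Sdha lay below the water values on every array, by a small amount (log2 change -0.09 ± 0.06 SE, adjusted p = 0.445). Sdhb, the iron-sulfur subunit, changed by -0.05, and the membrane anchors Sdhc and Sdhd by 0.03 and 0.11. Sdhd ran from 853 to 989 units in water and from 950 to 1019 in dox, with overlap. In complex III the largest changes were those of the hinge protein Uqcrh (-0.13, adjusted p = 0.333) and of Uqcrb (0.14, adjusted p = 0.379), in opposite directions. The Rieske iron-sulfur protein Uqcrfs1 changed by 0.03 and the core proteins Uqcrc1 and Uqcrc2 by -0.01 and 0.03.

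Among the ubiquitous subunits of complex IV, Cox5a, which is needed for assembly of the enzyme core, had the largest change. It measured 2022, 2197 and 2293 units in water and 2599, 2465, 2583, 2449 and 2551 in dox. All dox values of Cox5a lay above all water values, a difference of 1.17-fold (log2 change 0.22 ± 0.06 SE). It did not pass in limma (adjusted p = 0.0814) but did with the trend and robust prior (0.0185). Cox4i1, the ubiquitous form of subunit 4, had 5995 to 6500 units in water and 5816 to 6090 in dox (-0.07, 95% interval -0.20 to 0.06), and Cox5b, Cox6b1 and Cox6c changed by 0.04, 0.07 and -0.03. Cox7b lay under the lower quartile in both groups, and the array gives no usable level for it.

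The restricted isoforms of complex IV behaved less evenly than the ubiquitous ones. All 7 had log2 changes below 0 (median -0.24), as had 53 of the 84 members and 15638 of the 27200 genes. Without dox 2 and dox 3 the median of the 7 was -0.06 and 6 were below 0. With single arrays left out the median ran from -0.29 to -0.09, and Cox6b2, Cox7b2 and Cox8c each turned positive at least once. In limma 0 of 7 passed, while 2 had an unadjusted p under 0.05, Cox4i2 and Cox7a1. Cox4i2, the form of subunit 4 found in lung and in cells that respond to low oxygen, measured 401, 327 and 294 units in water and 268, 271, 296, 284 and 270 in dox. Water arrays spread widely (SD 0.23, log2), dox arrays did not (SD 0.06), and dox 3 exceeded water 3. The log2 change was -0.28 ± 0.10 (SE) with an adjusted p of 0.128, and over all alternatives it ran from -0.38 to -0.16. Cox6b2 and Cox8c, known from testis, changed by -0.02 and -0.05, and Cox7b2 had 13.8 to 17.7 units, close to the lower quartile, and is not informative.

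Cox6a2, Cox7a1 and Cox8b, the isoforms of heart and skeletal muscle, were low on single dox arrays. Cox6a2 measured 438, 458 and 544 units in water and 538, 277, 268, 529 and 510.5 in dox 1 to 5. Cox7a1 measured 211, 244 and 248 units in water and 188, 107, 115, 219 and 193 in dox. Cox8b measured 314, 310 and 330 units in water and 308, 189, 188, 318 and 287 in dox. In each of the 3 genes dox 2 and dox 3 were lowest. The other dox arrays lay within or close to the water range for Cox6a2 and Cox8b, and for Cox7a1 2 of these 3 arrays lay below it. The mean log2 value of dox 2 and dox 3 minus that of dox 1, 4 and 5 was -0.95 for Cox6a2, -0.85 for Cox7a1 and -0.69 for Cox8b. The same difference was -1.46 for the cardiac myosin heavy chain Myh6, -1.04 for the atrial light chain Myl7 and -1.19 for the troponin Tnnt2. The log2 changes of dox minus water were -0.24 for Cox6a2 (adjusted p = 0.666), -0.57 for Cox7a1 (0.204) and -0.34 for Cox8b (0.353). Without dox 2 and dox 3 they were 0.14, -0.23 and -0.06 (0.590, 0.344 and 0.782). The split of the dox arrays was seen in the data, not in the labels, and the part of cardiac muscle in it was not tested. Both arrays also lay below the other dox arrays in 23 of 84 members, a larger share than the 2916 of 27200 genes (10.7%). Only these 3 members moved by over 0.5.

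**Figure D4:**
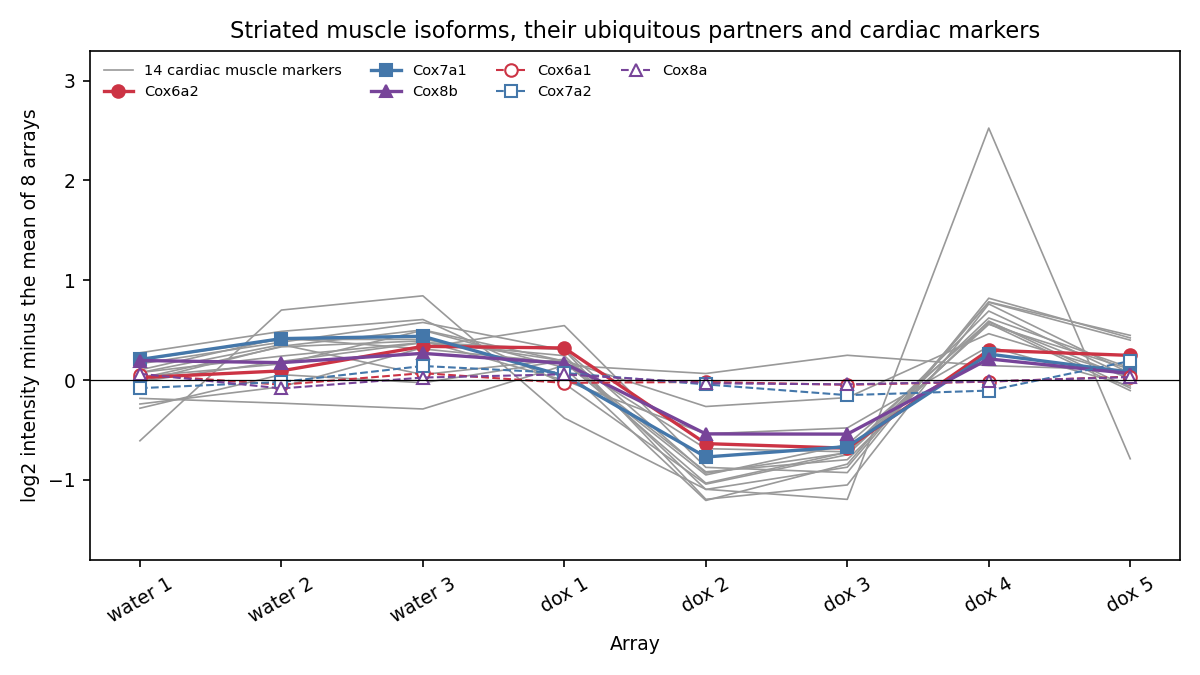
Log2 intensity of each gene minus its mean over the 8 arrays. Filled symbols are the striated muscle isoforms Cox6a2, Cox7a1 and Cox8b, open symbols their ubiquitous partners Cox6a1, Cox7a2 and Cox8a, and grey lines 14 cardiac muscle markers; lines join the values of 1 gene. The isoforms and 13 of the 14 markers are low in dox 2 and dox 3, and the partners stay within 0.2 of their mean.

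The ubiquitous partners of these isoforms stayed near their water values on dox 2 and dox 3. Cox6a1 had 3678 to 3986 units in water and 3676 to 3891 in dox, Cox8a 1744 to 1931 and 1794 to 1924, and Cox7a2 564 to 658 and 537 to 681. Their log2 changes were -0.04, -0.00 and -0.02. Promoter windows of RefSeq (GRCm38.p6, 250 bases before to 50 after the gene start, both strands searched) were found for 68 of the 84 members, in 74 windows. The motif of nuclear respiratory factor 1 (GCGCA, any base, GCGC) stood in 18 of 66 windows of ubiquitous subunits (27.3%, against 4.60% of all 32851 windows), and the ETS core (CCGGAAG) in 16 (24.2%, against 8.86%). One or the other stood in 30 of the 66 (45.5%, against 12.6%) and in 0 of the 4 windows of restricted isoforms. Within complex IV it stood in only 3 of 8 windows of ubiquitous subunits, and 5 of the 8, among them Cox5a and Cox7a2, held neither motif. A TATAAA stood in 6 of the 66 windows (9.09%), in 2 of those 4 and in 13.6% of all windows. The motif matches in the printed windows do not overlap each other. To show 2 of the muscle isoforms beside ubiquitous subunits with and without a match, 4 windows are printed 5′ to 3′ on the strand of the gene: Cox6a1 (chr5:115348909-115349208, minus strand), Cox7a2 (chr9:79759804-79760103, minus strand), Cox7a1 (chr7:30183921-30184220, plus strand) and Cox8b (chr7:140900397-140900696, minus strand). Of these only Cox7a1 and Cox7a2 are partners. The window of Cox8a, the partner of Cox8b, held an ETS core and is not printed, and Cox6a2 had no window. Capitals mark the motif matches: 2 for nuclear respiratory factor 1 and 1 ETS core in Cox6a1, a TATAAA in Cox8b, and none in Cox7a2 or Cox7a1. Cox6a1 is the 1 window of the 8 that holds the motif of nuclear respiratory factor 1. These are letter matches and not shown to be sites.
Cox6a1: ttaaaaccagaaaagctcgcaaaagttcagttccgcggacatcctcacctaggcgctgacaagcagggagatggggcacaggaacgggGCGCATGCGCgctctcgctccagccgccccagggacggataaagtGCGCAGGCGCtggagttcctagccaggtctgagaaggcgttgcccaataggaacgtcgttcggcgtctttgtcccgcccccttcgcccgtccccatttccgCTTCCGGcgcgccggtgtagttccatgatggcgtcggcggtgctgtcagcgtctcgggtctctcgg
Cox7a2: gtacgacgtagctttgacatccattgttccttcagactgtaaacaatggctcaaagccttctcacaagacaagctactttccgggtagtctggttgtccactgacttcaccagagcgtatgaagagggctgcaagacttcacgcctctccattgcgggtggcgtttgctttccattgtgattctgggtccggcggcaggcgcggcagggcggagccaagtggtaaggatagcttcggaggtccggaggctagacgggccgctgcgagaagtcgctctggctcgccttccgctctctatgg
Cox7a1: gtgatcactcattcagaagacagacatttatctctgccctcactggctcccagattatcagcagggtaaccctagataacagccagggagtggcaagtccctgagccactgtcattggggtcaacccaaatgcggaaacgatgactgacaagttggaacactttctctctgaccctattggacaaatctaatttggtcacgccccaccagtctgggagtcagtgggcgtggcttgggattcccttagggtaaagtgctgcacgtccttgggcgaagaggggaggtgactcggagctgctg
Cox8b: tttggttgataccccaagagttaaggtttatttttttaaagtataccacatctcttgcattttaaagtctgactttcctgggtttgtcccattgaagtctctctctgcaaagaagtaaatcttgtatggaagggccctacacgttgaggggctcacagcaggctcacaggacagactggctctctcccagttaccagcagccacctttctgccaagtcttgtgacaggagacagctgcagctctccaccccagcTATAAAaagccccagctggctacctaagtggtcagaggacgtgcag

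The catalytic and rotor subunits of ATP synthase were level. Atp5a1, the alpha subunit, measured 6896, 6863 and 6928 units in water and 6976, 6662, 6781, 6957 and 7070 in dox (log2 change -0.00, 95% interval -0.13 to 0.12), and the catalytic beta subunit Atp5b changed by -0.03. The 3 genes for the c-ring protein, Atp5g1, Atp5g2 and Atp5g3, changed by 0.02, 0.04 and 0.03. The largest positive log2 change in complex V was that of Atp5f1, subunit b of the peripheral stalk (now Atp5pb). It measured 1718, 1819 and 1889 units in water and 2129, 2279, 2002, 2127 and 2146 in dox. The lowest dox value of Atp5f1 exceeded the highest water value, a difference of 1.18-fold (log2 change 0.24 ± 0.07 SE). The test gave an adjusted p of 0.0660 in limma, and 0.0150 with the trend and robust prior and 0.0452 after the dimmest 25% of genes were left out. The other subunits of the stalk, Atp5h, Atp5j and Atp5o, changed by -0.04, -0.07 and -0.02. Atp5j was lower in dox without overlap, by a small amount (limma adjusted p = 0.602).

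Of the 84 symbols, 5 match by name but belong to proteins that are not subunits, and 3 of these had an unadjusted p under 0.05. Besides Ndufa4l2 these were Atp5s (now Dmac2l), Atp5sl (now Dmac2, a complex I assembly protein), Cox4nb (now Emc8, of a complex of the endoplasmic reticulum) and Cox7a2l, which joins complexes III and IV into supercomplexes. Atp5s measured 268, 274 and 276 units in water and 229, 207, 239, 238 and 192 in dox. Its groups did not overlap, and the log2 change was -0.31 ± 0.08 (SE, limma adjusted p = 0.0614), past the threshold with the trend and robust prior (0.0327), a second quantile normalization (0.0424) or without the dimmest genes (0.0480). For Cox4nb the brightest probe set changed by 0.15 (unadjusted p = 0.0480) and its other probe set by -0.16, so the gene has no settled direction. Cox7a2l changed by -0.05 and Atp5sl by 0.04. Without these 5 genes, 0 of 79 members passed in limma and 6 had an unadjusted p under 0.05.

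Probe sets limit the reading of single subunits. The name of the probe set ends in _s_at for 26 members and in _x_at for 4, endings that by array convention mark probes shared with further transcripts, and subunit genes have many processed pseudogenes. Of the 84 members, 11 had more than 1 probe set, and in none did a probe set pass on its own. The second probe set of Atp5h changed by -0.21 (unadjusted p = 0.00583), against -0.04 for its brighter one.

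Some subunits lie outside the symbol rule. Atp5md and Atp5mpl, small membrane proteins of ATP synthase listed under older names, changed by -0.03 and 0.15 (adjusted p = 0.882 and 0.232). Atp5mpl was higher in dox without overlap (unadjusted p = 0.0378), and both were chosen after their values were seen. Among 7 of 13 subunits encoded by mitochondrial DNA, 0 passed in limma and 1 had an unadjusted p under 0.05. COX2 had 22803 to 23498 units in water and 22696 to 23784 in dox (log2 change 0.01), and ATP6 and ND5 changed by 0.04 and 0.03. The exception at unadjusted p was ND1, on a dim probe set (0.63 ± 0.20 SE, 23.8 to 29.2 units in water and 26.2 to 54.0 in dox, adjusted p = 0.115). It passed without dox 4 (0.80, adjusted p = 0.00576).

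Genes that build and supply the chain were also mostly level. Of 46 assembly factors 0 rose and 1 fell, against 3.48% and 1.52% of all genes. The 1 was Pet100, a factor of complex IV assembly (48.6 against 60.5 units, -0.31 ± 0.08 SE, limma adjusted p = 0.0459). The other 5 with an unadjusted p under 0.05 did not pass. Pet100 lost its call when any single array other than water 1 was left out (limma adjusted p up to 0.149), and without both dox 2 and dox 3 (0.143). The call was also lost with the trend and robust prior (0.0552), a second quantile normalization (0.0588) or array medians subtracted (0.0544). The same held with every probe set tested on its own (0.0565) and with the replicate block (0.224), whereas with array weights Pet100 passed (0.0397). None passed among 20 enzymes of the citric acid cycle (1 with unadjusted p under 0.05, Pdha1 of pyruvate dehydrogenase, -0.14), 24 carriers of electrons, ATP, ADP and phosphate (1, Coq3 of ubiquinone synthesis, -0.17), 48 proteins of the large mitochondrial ribosome subunit (6, with Mrpl19 at 0.21 smallest in p) and 23 regulators of mitochondrial biogenesis (2). Among the regulators Pprc1, a coactivator related to Ppargc1a that growth signals induce, had 346 units in water and 462 in dox without overlap (0.42 ± 0.13 SE, adjusted p = 0.1003). The change of Pprc1 was 0.22 without water 1 and 0.10 when its probe sets were averaged. Over all genes 5.00% were called and 18.7% had an unadjusted p under 0.05. The medians of these 5 lists lay between -0.02 and 0.00, and that of all genes was -0.03.

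Of 19 inducible or tissue-restricted proteins of the chain, 1 rose and Ndufa4l2 fell, against 3.48% and 1.52% of all genes. The list repeats Ndufa4l2 and the 7 restricted isoforms from the members. An unadjusted p under 0.05 was reached by 6 of the 19, against 18.7% of all genes. The groups did not overlap for 5, against 14.2%. The gene that rose was AA467197 (Nmes1), a relative of Ndufa4 that inflammatory signals induce in macrophages and that can take the place of Ndufa4 in complex IV. It measured 11.2, 10.4 and 9.70 units in water and 16.9, 22.3, 19.0, 22.0 and 21.3 in dox. Every dox value exceeded every water value (log2 change 0.96 ± 0.10 SE, limma adjusted p = 0.000312). The call held under every alternative that tested it (adjusted p from 9.1e-05 to 0.0145), and the filter on dim genes left it out. Its water values lay under the lower quartile of the arrays and may be background, so the rise is stated as at least 1.39-fold against that quartile. Higd1b, a relative of the assembly factor Higd1a that pericytes express, changed by -0.31 (431 against 348 units, adjusted p = 0.0532, and 0.0218 to 0.197 over the alternatives, without overlap). The complex V inhibitor Atpif1 changed by 0.12, and Nos2, whose product nitric oxide blocks complex IV, by 0.09. Acod1, whose product itaconate inhibits succinate dehydrogenase, lay under the lower quartile in both groups.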

How the data were processed

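The series was measured on a 1-colour array from biotin-labelled cRNA, per the labels' protocols, with 3 water and 5 dox arrays. The deposited table holds linear intensity values, which the submitters' processing notes credit to RMA with no version given. Gene symbols came from the annotation columns of a further deposited table, whose 8 columns of intensity match no sample label and were not used. Symbols were updated with RefSeq names (GRCm38.p6): 17218 probe sets by accession, 13435 by symbol and 1890 by older symbol, while 4450 kept the array's symbol, giving 27200 genes.

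Values were taken to log2 and tested with limma 3.58.1 in R 4.3.3 (lmFit, eBayes, 2-sided), adjusted over all genes at a threshold of 0.05, and the method was tested on simulated data. Without detection calls, the lower quartile of each array (13.9 to 14.5 units) served as the floor. The number of arrays limits the precision. Members with an unadjusted p under 0.05, the smallest p, largest change or highest signal in a complex, and isoforms with their partners were named. Further genes of a complex or list named for their role were chosen after their values were seen. In each list genes past the threshold, or else the smallest p, were named. The members and lists were chosen with earlier results of these data known. Alternatives were the prior, array weights, normalization, a filter on dim genes, the treatment of probe sets, a replicate block, single arrays left out and, added after the data were seen, both dox 2 and dox 3 left out. Plots used matplotlib 3.10.9. The values of 1 member are not reported here.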

Additional observations from a re-analysis of the deposited data

Results flagged for a closer look

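Among 109 genes checked, the 84 members and 25 others, 5 had 1 dox array far from the other 4, by a gap above 0.71 of the range of the group (Dixon's critical value for 5 samples). This test marks about 1 in 20 groups by chance. Cox4i1 was low in dox 5 (log2 intensity 12.51, others 12.56 to 12.57, gap 0.802 of the range), and Uqcrc2 was low in dox 5 (9.71, others 9.86 to 9.91, gap 0.751). Ndufs6 was low in dox 3 (10.15, others 10.30 to 10.32, gap 0.900 of the range), and so was Uqcr11 (10.78, others 10.91 to 10.96, gap 0.761). Ndufb4 was high in dox 1 (11.19, others 11.05 to 11.06, gap 0.891).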

How the results depend on the processing

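The number of members called was 1 and moved to 5 with the trend and robust prior, to 3 after a second quantile normalization, to 3 without the dimmest 25% of genes, and to 0 without the 5 genes that are not subunits. With single arrays left out it ran from 0 to 1. The genes added were Atp5f1, Atp5s, Cox5a and Ndufv3. The count over all genes, 1359, was 1816 with that prior, 1459 after the second quantile normalization and 1589 without the dimmest genes. It ran from 883 to 1289 with single arrays left out. Without dox 2 and dox 3 it was 607, and 1 member, Ndufa4l2, was called. The deviations of same-numbered arrays correlated at 0.01, 0.06 and -0.16. Differently numbered arrays were not compared, so these values cannot settle whether replicate numbers pair the samples. With the replicate block (replicates 1 to 3) 605 genes and 0 members were called, on 6 arrays; there the adjusted p was 0.179 for Ndufa4l2, 0.104 for Myh7, 0.0669 for Ednrb, 0.177 for Gpihbp1 and 0.0327 for ND1. The medians of the members and of each complex stayed within the spread between arrays under every alternative run. Signal near the lower quartile limits Ndufa1, Cox7b, Cox7b2, Acod1 and AA467197.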
